A study of Mus musculus with 12 samples.

Results

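The islet identity transcription factors examined here were Neurod1, Foxa2, Isl1, Nkx2-2, Pax6, Pdx1, Mafa, Nkx6-1 and Hhex. They were taken by name, and every non-control probe carrying 1 of these symbols was used, which gave 9 of the 17016 symbols on the array and 11 of its 41174 non-control probes. Pax6 and Hhex had 2 probes each. RNA came from islets cut by laser from frozen pancreas sections of 12 female mice aged 12 weeks, 6 of strain NOD and 6 of strain NOD.B10. NOD mice develop autoimmune diabetes, and NOD.B10 was the healthy control strain. The islet RNA was amplified, labelled with Cy5 and hybridised on a 2-colour Agilent mouse array, 1 array per mouse, together with Cy3-labelled universal mouse RNA as a common reference. The sections hold every cell that lay inside the cut outline, so in these bulk samples fewer cells of a type and less RNA per cell cannot be told apart.

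These factors bind DNA and set which genes an islet cell keeps active. Neurod1 is a basic helix-loop-helix factor, Foxa2 is a forkhead factor that opens chromatin in cells of the gut tube, and Isl1, Nkx2-2 and Pax6 are homeodomain factors shared by several endocrine cell types. Pdx1, Nkx6-1 and the leucine zipper factor Mafa are known for beta cells, where they maintain insulin and glucose-sensing genes. Hhex is a homeodomain factor that maintains the somatostatin-producing delta cell, and it is also expressed in blood cells, including B cells, and in endothelial cells. Transcription factor messages are scarce beside those of hormones, so their signals lie close to the background of the array.

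The promoter sequences of the 4 factors on which the results turn are shown because the factors bind such sequences and regulate one another. All 5 tested factors matched a RefSeq promoter of assembly GRCm38.p6. Each line gives the 250 bases before the gene's start, read 5′ to 3′ on the gene's strand, with capitals marking the E-box CANNTG bound by basic helix-loop-helix factors and the homeodomain core TAAT, searched on both strands (ATTA on the other).
Neurod1, chr2:79456637-79456886, minus strand: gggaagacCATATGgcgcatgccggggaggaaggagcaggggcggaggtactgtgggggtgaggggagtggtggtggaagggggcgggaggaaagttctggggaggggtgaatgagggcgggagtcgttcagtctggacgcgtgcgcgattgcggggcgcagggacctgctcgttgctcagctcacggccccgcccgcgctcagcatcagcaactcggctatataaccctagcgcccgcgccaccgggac
Foxa2, chr2:148046970-148047219, minus strand: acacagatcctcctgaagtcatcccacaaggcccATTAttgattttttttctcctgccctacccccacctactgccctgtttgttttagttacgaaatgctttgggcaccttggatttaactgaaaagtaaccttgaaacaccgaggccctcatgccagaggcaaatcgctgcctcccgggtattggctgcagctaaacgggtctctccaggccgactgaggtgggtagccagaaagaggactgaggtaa
Isl1, chr13:116309689-116309938, minus strand: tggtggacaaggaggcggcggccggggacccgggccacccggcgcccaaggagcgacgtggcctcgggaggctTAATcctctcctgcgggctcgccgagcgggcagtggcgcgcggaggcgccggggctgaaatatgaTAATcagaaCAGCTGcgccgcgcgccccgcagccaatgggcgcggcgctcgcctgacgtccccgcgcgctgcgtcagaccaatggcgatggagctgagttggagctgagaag
Hhex, chr19:37434591-37434840, plus strand: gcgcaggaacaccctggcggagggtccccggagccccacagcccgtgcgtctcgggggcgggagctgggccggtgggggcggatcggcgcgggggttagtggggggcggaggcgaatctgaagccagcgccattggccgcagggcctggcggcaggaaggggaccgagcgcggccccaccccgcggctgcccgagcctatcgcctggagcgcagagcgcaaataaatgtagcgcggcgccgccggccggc
The Neurod1 window held 1 E-box and no TAAT, the Foxa2 window 1 TAAT and no E-box, and the Isl1 window 2 TAAT and 1 E-box, none of which overlapped. The Hhex and Nkx6-1 windows held neither. Over 32851 promoter windows of this length, 66.2% held an E-box and 54.9% a TAAT, so both are common. The forkhead motif TGTTTAC, held by 3.17% of windows, was in none of the 5. The arrays did not measure binding to these sequences.

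The arrays differed between the strains before any gene was compared. Cy5 was well above background, by the scanner's own mark, on 10.7 to 17.3% of spots in NOD and on 3.96 to 7.88% in NOD.B10, while the Cy3 reference was so on 46.7 to 51.9% and 47.8 to 54.4%. Hormone genes were detected in every mouse: Ins1, Ins2, Gcg and Sst were well above background on all 6 arrays of either strain. Markers of leukocytes differed most, with a summed net Cy5 signal over 9 genes of 1250 to 9662 scanner units in NOD and 36.1 to 103 in NOD.B10. All 7 tested leukocyte markers were called higher in NOD (median log2 difference 3.49), but 5 of them (Ptprc, Cd3d, Ms4a1, Coro1a and Laptm5) had no marked NOD.B10 array and passed the detection filter through NOD alone. Cd3e and Cd79a were well above background on no array of either strain. The lower bound for Ptprc, which encodes the leukocyte antigen CD45, was 13.5-fold higher in NOD. Its fitted log2 difference was 4.09 (limma, adjusted p 9.98e-06). As the 5 genes passed the filter only through NOD, their calls are no independent support. Of the other markers, 3 of 5 acinar genes were lower, and 1 of 5 mesenchymal genes was higher and 1 lower. Of the 3 endothelial genes and 1 duct gene tested 0 were called, with 0 at an unadjusted p under 0.05. Over all 3920 tested genes, 18.7% were called higher and 18.3% lower, and the mesenchymal counts were near these shares. The leukocyte calls were all kept on each of 4 other scales (median centring, scanner ratios, Cy5 alone and ranks), but 1 of 7 was kept with the share of bright spots as a covariate. Within slide 2 the calls kept were 2 of 7 and within slide 3 they were 0, where 46 and 1 of all 3920 genes were called higher. With median centring 0 acinar genes were lower, and 4 mesenchymal, 2 endothelial and 1 duct gene were higher. In that setting 50.5% of all genes were called higher and 0 lower.

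Of the 9 factors, 5 were measurable. The comparison of strains was limited to genes whose islet signal the scanner marked in 4 or more of the 12 mice. This left 3920 genes, among them Neurod1, Foxa2, Isl1, Nkx6-1 and Hhex. Neurod1 was well above background on 6 NOD and 5 NOD.B10 arrays, Isl1 on 5 and 6, and Hhex on 6 and 3. Foxa2, on 3 NOD arrays and 1 NOD.B10 array, and Nkx6-1, on 1 and 3, only just passed. The reference gave a clear Cy3 signal on all 12 arrays for Neurod1, Foxa2, Isl1 and this Hhex probe, but on only 2 for Nkx6-1, so the Nkx6-1 ratio rests on a faint denominator as well.

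Nkx2-2, Pax6, Pdx1 and Mafa were well above background on no array, in either channel, and nothing can be said of their level in the islets of either strain. The net Cy5 signal of Pdx1, the factor that binds the insulin promoter, was -0.5 to 6.5 scanner units in NOD (median 3.5) and -2 to 5 in NOD.B10 (median 0.5). Mafa gave 0 to 5.5 and -2 to 4.5 units, and Nkx2-2 gave 0 to 7 and -3 to 7. Their strain ranges overlapped and lay around 0. Under the scanner's looser mark of a signal that is positive and significant against its local background, Pdx1 was marked on 3 NOD and 2 NOD.B10 arrays, Nkx2-2 on 1 NOD array and Mafa on none. Both Pax6 probes were unmarked on all arrays by either criterion, and 1 of them is printed 10 times per array. All 60 of its spots in each strain were unmarked. The second Hhex probe was also dark in Cy5 on all arrays, with net signals of -2.5 to 4 units in NOD and -3 to 4 in NOD.B10, against a median of 66.25 units in NOD for the first probe. Faint probes of genes that islets are known to express limit what a low signal on these arrays can show.

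Among the factors shared by endocrine cells, no strain difference was called in the main fit. The background correction adds an offset of 50 units to both channels. This draws differences in log2 ratio between faint signals, and their SEs, towards 0. The net Cy5 of Neurod1, Isl1, Foxa2 and Nkx6-1 lay below 50 units on every array, and that of Hhex on every NOD.B10 array. Neurod1 had a net Cy5 signal of 9 to 47 scanner units in NOD (median 22.75) and 6.5 to 24.5 in NOD.B10 (median 18.25). Its log2 ratio to the reference, after background correction and loess normalisation, ran from 0.27 to 1.53 in NOD with a median of 0.71, and from 0.22 to 0.93 in NOD.B10 with a median of 0.75. The strains overlapped over nearly their whole range, and only NOD mouse 3 stood above the NOD.B10 values. The difference, NOD minus NOD.B10, was 0.09 ± 0.19 (SE, limma, adjusted p 0.737).

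Isl1, a LIM-homeodomain factor of all hormone cell types, gave net Cy5 signals of 8.7 to 44.65 units in NOD (median 29.5) and 16.35 to 39.75 in NOD.B10 (median 22.6). Its log2 ratio was 0.24 to 1.42 in NOD (median 1.01) and 0.66 to 1.47 in NOD.B10 (median 0.91). The lowest values belonged to NOD mice 5 and 4, and the remaining values of both strains were interleaved. The difference was -0.08 ± 0.21 (SE, limma, adjusted p 0.801). The Isl1 probe is printed 10 times per array, and 53 of the 60 spots in NOD and 60 of 60 in NOD.B10 were well above background.

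Foxa2 gave 2 to 35.5 net units in NOD (median 10.95) and 2.39 to 8.75 in NOD.B10 (median 5.37) over a reference signal with medians of 215 and 189 units. Its log2 ratio was -0.07 to 1.07 in NOD (median 0.13) and -0.01 to 0.31 in NOD.B10 (median 0.15). The strains overlapped, with NOD mouse 3 alone far above all others. The difference was 0.11 ± 0.17 (SE, limma, adjusted p 0.638).

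The 10 copies of the Foxa2 and Isl1 probes give the error of a spot within an array. With 1 array per mouse, the SD among mice holds the error of amplification, labelling and hybridisation as well as differences between the animals. For Isl1 the SD of the log2 ratio among spots of an array was 0.158 in NOD and 0.147 in NOD.B10 (median over arrays), and the SD among mice was 0.47 and 0.31. For Foxa2 the spot SD was 0.12 in NOD against a mouse SD of 0.42, while in NOD.B10 the values were 0.145 and 0.131. Foxa2 spots well above background numbered 10 on each of the arrays of NOD mice 1, 2 and 3, 4 on that of mouse 6 and 0 on those of mice 4 and 5. In NOD.B10 they numbered 8 in mouse 4 and at most 1 in the others. The SD among mice thus exceeded the SD of single spots for Isl1 in both strains and for Foxa2 in NOD, but not for Foxa2 in NOD.B10. Each mouse value averages up to 10 spots, so its spot error is smaller than the SD of single spots. The comparison therefore does not show that Foxa2 varied among NOD.B10 mice by no more than spot error.

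**Figure D1:**
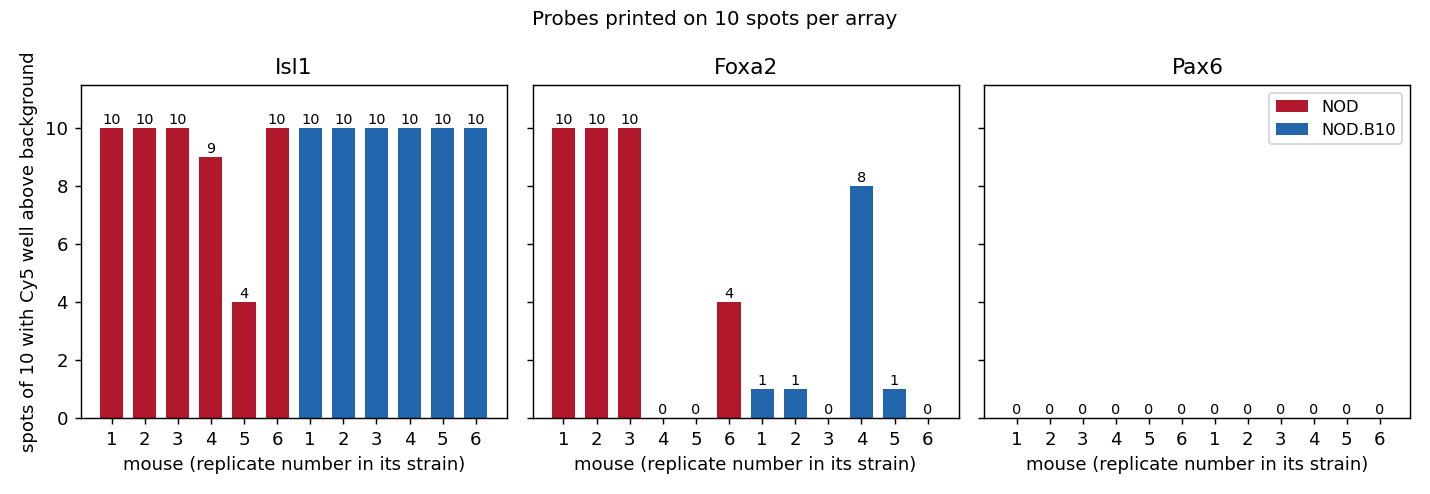
Bars give, for each of the 6 NOD (red) and 6 NOD.B10 (blue) mice, how many of the 10 spots of the Isl1, Foxa2 and Pax6 probes had Cy5 well above background. Isl1 was marked on 53 of 60 NOD and 60 of 60 NOD.B10 spots, Foxa2 on 34 and 11, and Pax6 on 0 in either strain.

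Nkx6-1, the only detected factor of the beta cell group, gave net Cy5 signals of -2 to 20 units in NOD (median 8) and 2 to 17 in NOD.B10 (median 8.75). Its log2 ratio was -0.05 to 0.79 in NOD (median 0.21) and 0.00 to 0.65 in NOD.B10 (median 0.29). The ranges overlapped almost entirely, with NOD mouse 3 highest and NOD mouse 4 lowest. The difference was -0.03 ± 0.15 (SE, limma, adjusted p 0.901).

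Hhex was the only factor called, and it was higher in NOD. Its net Cy5 signal was 20 to 122 units in NOD (median 66.25) and 2 to 14 in NOD.B10 (median 6.75), with every NOD mouse above every NOD.B10 mouse. Such a separation in unscaled signal was common, since 40.4% of all tested genes had it. Its reference signal, in contrast, was high in both strains, at 1282 to 1851 and 1166 to 2116 units, so that the islet signal was 1.33 to 9.52% of the reference in NOD and 0.095 to 0.926% in NOD.B10. After normalisation its log2 ratio was -0.27 to 0.96 in NOD (median 0.46; mean 0.40 ± 0.44 SD, n = 6) and -0.45 to 0.13 in NOD.B10 (median -0.08; mean -0.12 ± 0.21 SD, n = 6). On this scale the strains overlapped, because NOD mouse 3 lay among the NOD.B10 mice and NOD mouse 5 at their upper edge. The difference was 0.52 ± 0.19 (SE, limma, adjusted p 0.0443).

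**Figure D2:**
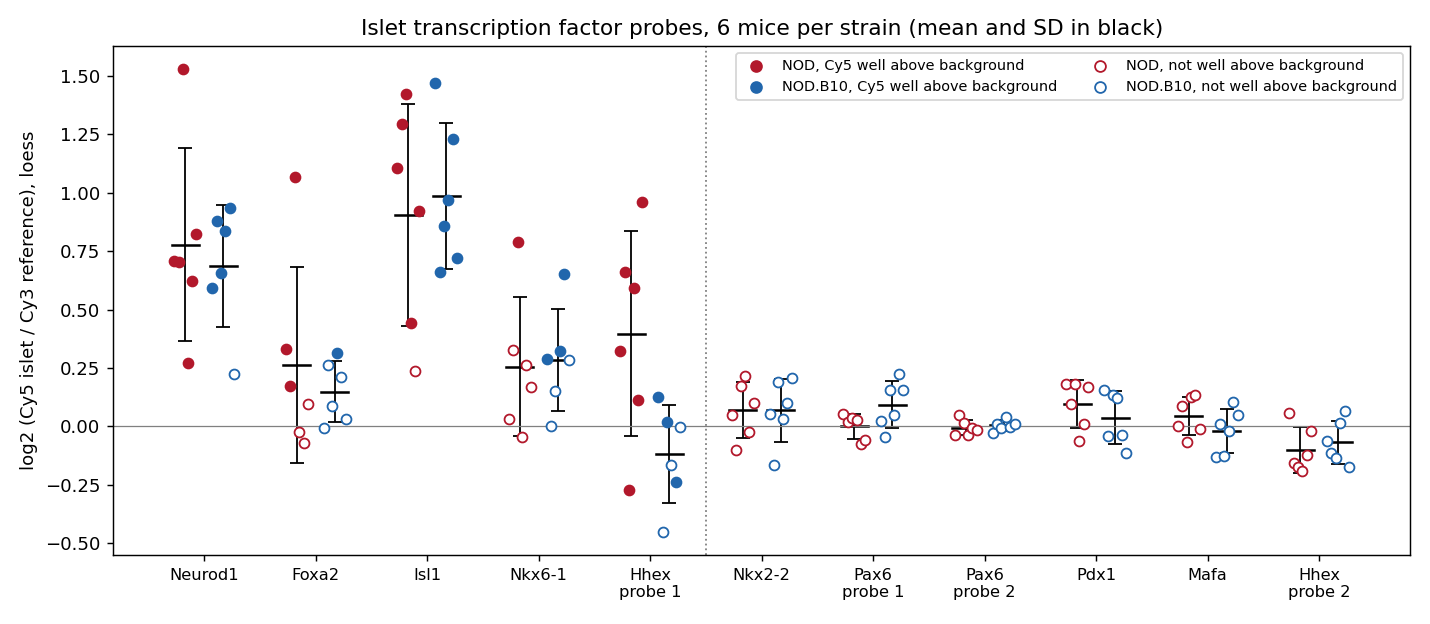
Normalised log2 ratio of Cy5 over Cy3 for each mouse and each of the 11 probes, with the mean and SD of 6 mice per strain; filled points mark arrays where Cy5 was well above background. Neurod1, Isl1, Foxa2 and Nkx6-1 overlapped between strains, Hhex probe 1 averaged 0.40 in NOD and -0.12 in NOD.B10, and the probes of Nkx2-2, Pax6, Pdx1 and Mafa had no filled point.

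The call for Hhex was 1 of 5 tested factors, against 18.7% of all tested genes called higher and 18.3% called lower in NOD (37% in all), and none of the factors was called lower. At an unadjusted p under 0.05 the factors gave the same counts, 1 higher and 0 lower. On the normalised scale all 5 factors overlapped between the strains, where 9.46% of tested genes had all 6 NOD mice above and 7.63% all 6 below. The Hhex call was lost in 9 of the 12 fits that each left out 1 mouse, with differences from 0.40 to 0.65 over all 12. It was also lost with slide as a fixed term (0.42, limma adjusted p 0.271), within slide 2 (0.18, adjusted p 0.819) and slide 3 (0.66, adjusted p 0.431), and with the share of bright spots as a covariate (0.09, adjusted p 0.977). Bright spots were more frequent in NOD on every array, and with that covariate only 3 genes of 3920 were called in all. The call was kept under 12 of 32 alternatives, in which 16.6 to 50.5% of all genes were called higher, the latter with median centring (Hhex 0.98, adjusted p 0.00159).

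Whether a second factor was called differed between the ways of processing. These differ in background correction and in the use of the Cy3 reference as well as in scaling. The parts played by these steps were not tested separately. On the scanner's own processed ratios, Isl1 was called lower in NOD (-1.54, limma, adjusted p 0.0291) while the median of all tested genes moved to 0.48, and 8.01% of genes were called lower and 28% higher. On Cy5 alone after quantile normalisation, Isl1 differed by -0.60 (adjusted p 0.000979), with 6.79% of genes called lower and 22.3% higher. By the rank of its Cy5 signal among all probes of an array, Isl1 fell from a median percentile of 97.8 in NOD.B10 to 92.9 in NOD (mean difference -5.85 points, adjusted p 0.0319, with 1.61% of genes lower). On the plain ratio of net signals, Isl1 differed by -2.01 (adjusted p 0.000643) and Neurod1 by -1.65 (adjusted p 0.0104), with 14.4% of genes called lower. Isl1 was thus called lower in NOD on these 4 scales and not with normexp and loess or with median centring (-0.00, adjusted p 0.982). With the normexp offset lowered to 10, the Isl1 difference was -0.49 (limma, adjusted p 0.328), against -0.08 in the main fit. The unscaled net signal of Isl1 overlapped between the strains.

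**Figure D3:**
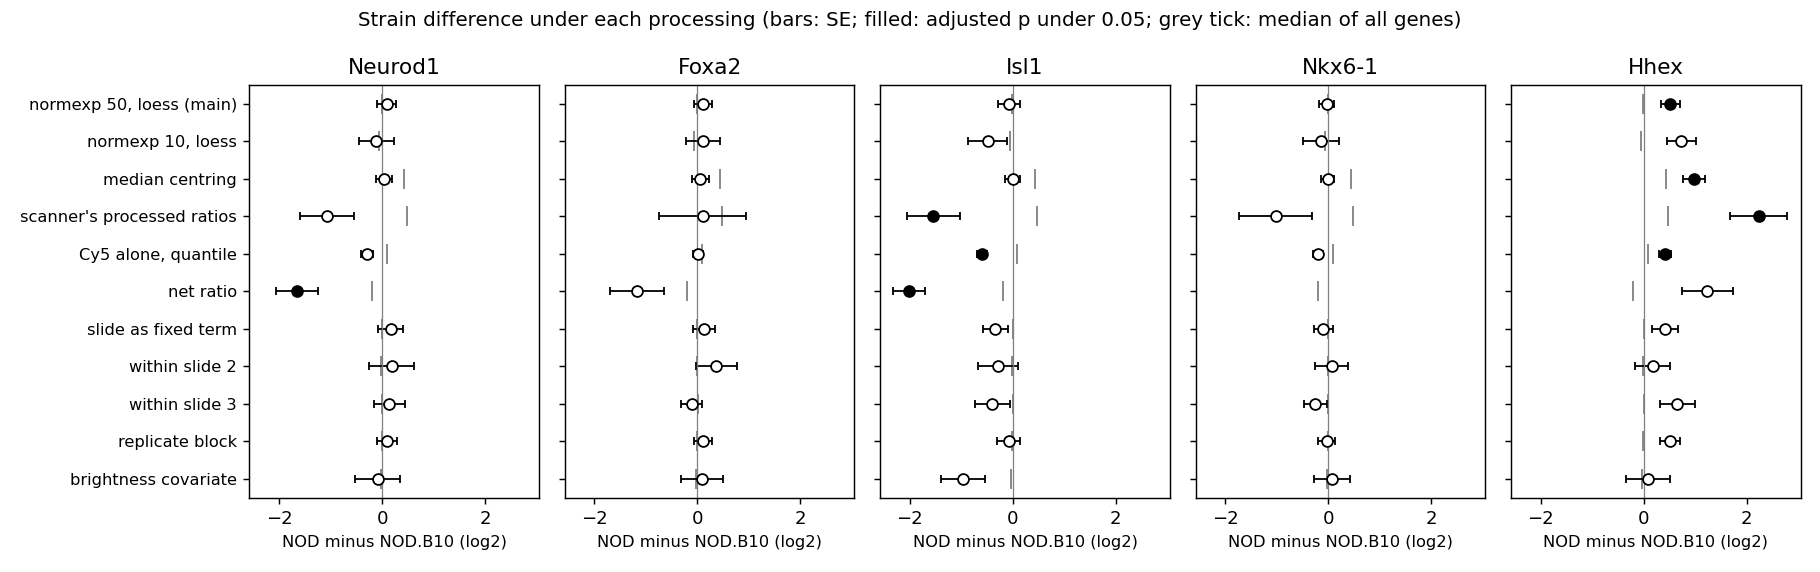
Difference in log2 ratio, NOD minus NOD.B10, of the 5 tested factors under 11 ways of processing, with bars for the SE, filled points where the limma adjusted p was under 0.05 and a grey tick at the median of all genes. Nkx6-1 has no value on the net ratio. Hhex lay above 0 throughout, from 0.09 to 2.24, while Isl1 reached -2.01 and Neurod1 -1.65 on the net ratio.

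A further comparison set the factors against other products of endocrine cells. The reference was the mean log2 ratio of the 9 endocrine secretory genes, of 20 listed, whose Cy5 signal passed that mark in all 12 mice (Chga, Chgb, Cpe, Pcsk1n, Pcsk2, Resp18, Scg3, Scg5 and Syt13). Among them are granins, prohormone-processing proteins and a synaptotagmin of the secretory pathway. Their mean was 2.78 to 5.05 in NOD and 3.92 to 4.65 in NOD.B10. Subtracting it moved the median difference of all 3920 genes to 0.73, and 26.6% of genes were then called higher and 1.3% lower. On this scale Neurod1 differed by 0.83 ± 0.36 (SE, limma adjusted p 0.0732), Foxa2 by 0.85 ± 0.37 (adjusted p 0.0672), Isl1 by 0.66 ± 0.37 (adjusted p 0.141) and Nkx6-1 by 0.71 ± 0.37 (adjusted p 0.118). These 4 values lay close to the median of all genes, and none was called. Hhex differed by 1.26 ± 0.41 and was called (adjusted p 0.0210), a call kept in 8 of the 12 fits that each left out 1 mouse and lost without NOD mouse 2, 4 or 6 or NOD.B10 mouse 5 (differences from 1.06 to 1.68 over all 12, adjusted p up to 0.0708). Without NOD mouse 3 all 5 factors were called higher, but so were 81.4% of all genes, and with slide as a fixed term Hhex was not called (1.24, adjusted p 0.110).

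A related but different measure needs no normalisation. It is the net Cy5 of a factor per 1000 units of summed net Cy5 of the 19 endocrine secretory genes with a probe, within each array. It leaves out the Cy3 reference, and bright genes weigh most in the sum. Isl1 gave 2.33 to 4.67 units in NOD (median 3.76) and 3.06 to 5.09 in NOD.B10 (median 4.22). Its median was thus lower in NOD, unlike the difference of 0.66 relative to the mean log2 ratio of the secretory genes. Neurod1 gave 2.45 to 5.09 (median 3.27) and 1.64 to 4.12 (median 2.98). For both factors the strains overlapped over most of their range, and arrays with a brighter secretory signal mostly had a brighter Isl1 signal, whichever the strain. Hhex gave 1.64 to 18.1 in NOD (median 10.6) and 0.375 to 2.53 in NOD.B10 (median 1.24), where only NOD mouse 3 reached the NOD.B10 range. Chga made up 51.7% of the summed signal and Pcsk2 24.1% on average, so the ratio rests largely on 2 genes. Both were called lower in NOD on the normalised scale. The unscaled sum itself was not lower in NOD, with medians of 7087 units in NOD and 6011 in NOD.B10.

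NOD mouse 3 stood apart for the whole group of factors. Among NOD mice it had the highest log2 ratio of Neurod1 (1.53), Isl1 (1.42), Foxa2 (1.07) and Nkx6-1 (0.79), and the lowest of Hhex (-0.27). It also had the highest summed endocrine secretory signal of the 12 mice (12179 units) and, among NOD mice, the lowest leukocyte signal but for mouse 5 (2038 units). NOD mice 4 and 5 had the lowest secretory signals of the strain (3347 and 3731 units) and the lowest Isl1 signals (12.35 and 8.7 units). For Hhex the order was another: NOD mice 2, 6, 1 and 4 had 122, 101.5, 72 and 60.5 units of Hhex with 9662, 5235, 5982 and 3539 units of leukocyte markers, and NOD mice 5 and 3 had 28 and 20 units of Hhex with 1250 and 2038 units. The summed mesenchymal signal divided the NOD mice in the same way. It was 2084, 1010, 1637 and 1141 units in mice 2, 6, 1 and 4, and 567 and 475 in mice 5 and 3. The summed acinar, duct, endothelial and secretory signals did not divide them so. The part of leukocyte or mesenchymal RNA in the Hhex difference was not tested.

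**Figure D4:**
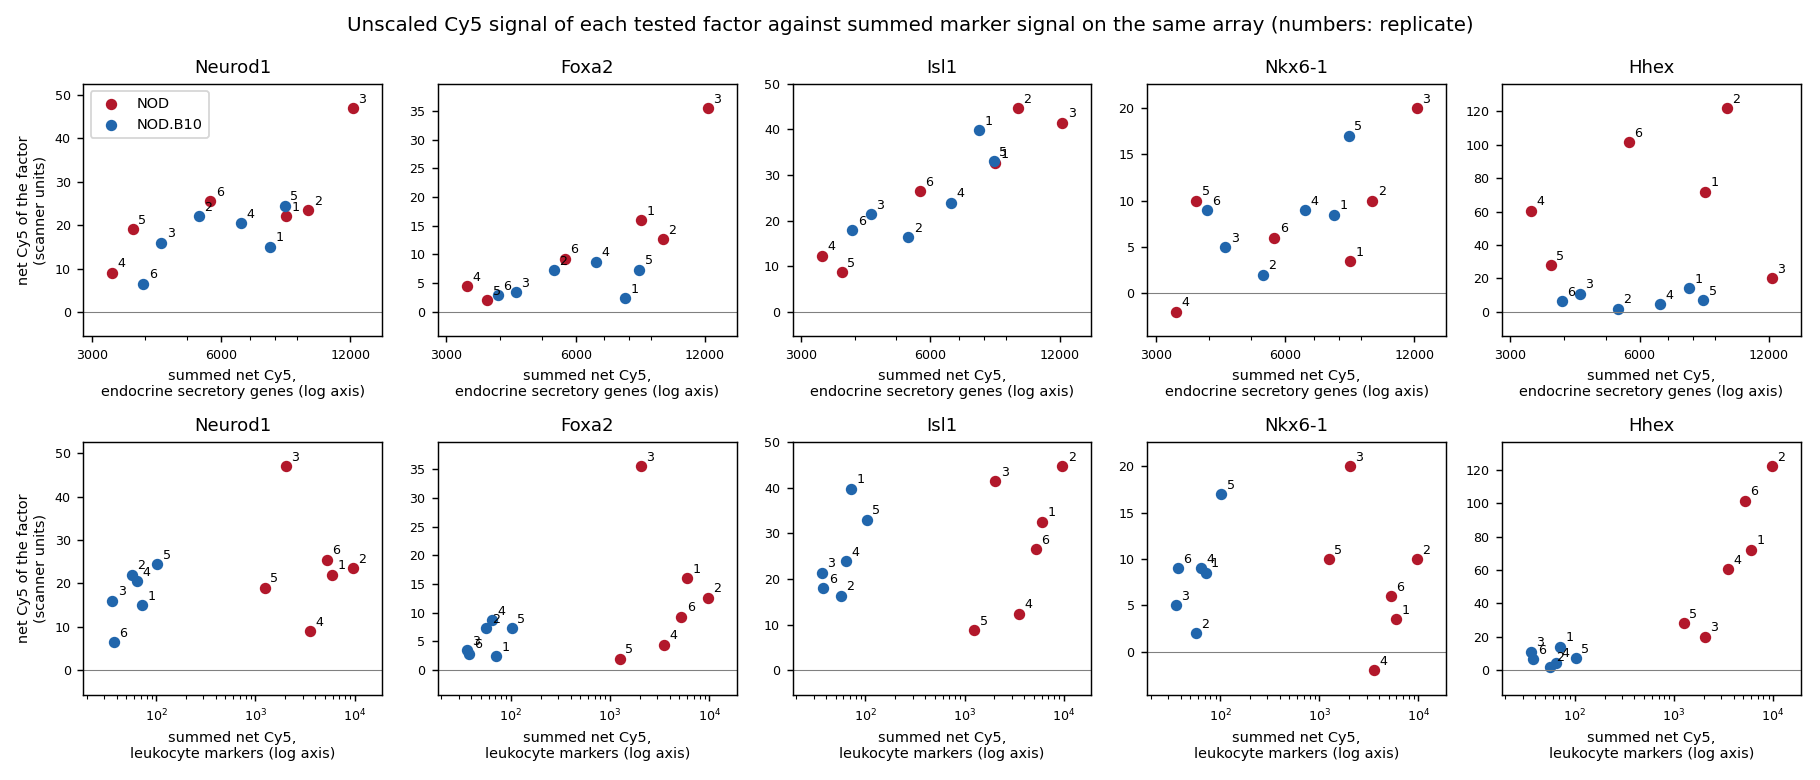
Net Cy5 signal of each tested factor, in scanner units, against the summed net Cy5 of the endocrine secretory genes (top) or of the leukocyte markers (bottom) on the same array, 1 point per mouse, with log horizontal axes. Isl1 was mostly brighter on arrays with a brighter secretory signal in both strains, and Hhex was high on the NOD arrays with a high leukocyte signal; all axes share the brightness of the array.

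The factors also varied together to different degrees from mouse to mouse. With the strain means removed, the log2 ratios of Neurod1 and Foxa2 had a Pearson r of 0.86 over the 12 arrays (0.92 among NOD and 0.77 among NOD.B10 mice). Hhex ran against both, with r of -0.61 to Neurod1 and -0.69 to Foxa2. Isl1 and Hhex had an r of 0.00. Among the NOD.B10 mice alone the r of Hhex was -0.66 to Neurod1 and -0.82 to Foxa2, and among the NOD mice it was -0.60 and -0.68. NOD mouse 3 had the extreme NOD value of all 5 factors. Without it the r of Neurod1 and Foxa2 was 0.69, those of Hhex to Neurod1 and Foxa2 were -0.28 and -0.35, and that of Isl1 and Hhex was 0.40. The points share array, dye and normalisation.

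The genes most like each factor by this measure were named over all 3920 tested genes. They were picked for their r, so high values follow from the choice. NOD mouse 3 is included, and no r without it is given for them. For Neurod1 they were Creld2 (r 0.957), Scg5 (0.92), which encodes the chaperone of prohormone convertase PC2, and Gng12 (0.911). For Foxa2 they were Gosr2 (0.971), Hsp90b1 (0.96), an endoplasmic reticulum chaperone, and Wdr13 (0.937). For Isl1 they were Exoc5 (0.921), Abca5 (0.916) and Pcnp (0.886), and for Nkx6-1 they were Tmem159 (0.906), Wls (0.872) and 0610040J01Rik (0.857). For Hhex they were H2-Oa (0.917), a chain of the class II peptide-loading regulator found in B cells, Snx18 (0.909) and Taf4 (0.904). Of these 15 genes, H2-Oa, marked on 6 NOD arrays and 0 NOD.B10 arrays, was called higher in NOD and 0610040J01Rik lower, and the other 13 were not called. H2-Oa passed the detection filter only through NOD, so its call is no independent support. The lower bound of its difference was only 1.02-fold.

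Few other transcription factors of the islet could be measured. Of 46 listed, 45 had a probe, 31 were well above background on no array and 7 were tested. Foxo1, a forkhead factor regulated by insulin signalling, was called higher (limma, adjusted p 0.00865), being well above background on 6 NOD arrays and 0 NOD.B10 arrays. It passed the detection filter only through the strain in which it was high, so this call is no independent support, and no fold is given. None of the 7 was called lower (2 at an unadjusted p under 0.05), and their median difference was -0.27, against -0.01 for all genes. That median was positive on the scanner's ratios (0.17), Cy5 alone (0.08) and with median centring (0.40).

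Known target genes of the factors gave a different count. Of 33 listed, 31 had a probe and 15 were tested, of which 7 were called lower in NOD and 0 higher (8 and 0 at an unadjusted p under 0.05), with a median of -1.02, against 18.3% of all tested genes called lower. Ins2, an insulin gene bound by Pdx1, Neurod1 and Mafa, differed by -3.35 ± 0.56 (SE, limma, adjusted p 0.000633) and Ins1 by -1.75 (adjusted p 0.0392). Slc2a2, the glucose transporter of beta cells, differed by -2.58 (adjusted p 0.000986) and Pcx, pyruvate carboxylase, by -1.45 (adjusted p 0.00222). Of the 12 endocrine secretory genes tested, 4 were called lower and 0 higher (5 and 0 unadjusted, median -0.28), beside the same 18.3% of all genes. Chga differed by -2.56 (limma, adjusted p 0.0011), Pcsk2 by -1.41 (adjusted p 0.0137), Pcsk1n by -1.25 (adjusted p 0.0414) and Syt13 by -1.27 (adjusted p 0.0442). Among hormones of other cells, Gcg differed by -1.19 (adjusted p 0.0263) and Sst, the hormone of the delta cells that Hhex maintains, by -0.44 (adjusted p 0.376). The 8 endocrine cell markers, which share hormones with these lists, had 4 called lower and 0 higher (5 and 0 unadjusted). With median centring none of the 3920 genes was called lower, and the medians of the target and secretory lists were 0.00 and 0.08. On the scanner's ratios 11 of 15 target genes and 8 of 12 secretory genes were called lower, against 8.01% of all genes. In the main fit the factors that could be measured thus gave 0 lower calls of 5 beside 7 of 15 among their targets. The difference between the lists was not tested. All of these factors but Hhex had net Cy5 signals below the offset of 50 units on every array. Hhex lay below it on every NOD.B10 array (2 to 14 units) and in NOD mice 3 and 5 (20 and 28 units). Isl1 was called lower on 4 other scales. The summed net Cy5 of the target list, unscaled, was not lower in NOD (median 53727 units) than in NOD.B10 (median 30089).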

How the data were processed

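RNA of laser-cut islets of 6 NOD and 6 NOD.B10 mice was measured against a common reference, with Cy5 for the islets and no dye swap. The deposited scanner files hold intensity values (median signal and local background per spot, in scanner units), not normalised, which came from version 10.5.1.1 of Feature Extraction per the file headers. They also hold processed intensity values and their log10 ratio, background-subtracted and dye-normalised by the authors' feature extraction per the file headers. The deposited series table equals the log2 of processed Cy5 over Cy3 for 100% of 41174 probes (tolerance 0.01), which settles its scale and direction and shows no further centring; its medians per array were -0.0902, -0.0620, -0.0969, -0.121, -0.0986 and -0.105 in NOD mice 1 to 6 and -0.230, -0.123, -0.130, -0.105, -0.208 and -0.285 in NOD.B10 mice 1 to 6. The deposited marks for outlier spots and for signals well above background were used as given.

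Median signals, since no means were given, were corrected with normexp (offset 50) and loess in limma 3.58.1 (R 4.3.3). Outlier spots (160 to 250 per array) were dropped where another spot of the probe remained, and spots of a probe were averaged. A probe counted as well above background where at least 50% of its spots were marked. Symbols came from RefSeq's GRCm38.p6 annotation, which named 24375 probes; array coordinates were not used. Probes detected in Cy5 on at least 4 arrays were kept, and the brightest per symbol gave 3920 genes. Strains were compared with lmFit and eBayes, with Benjamini-Hochberg adjustment over these genes and a threshold of 0.05. Net Cy5 is signal minus local background. Lower bounds raised each dimmer NOD.B10 signal to the 10th percentile of that array's well-detected probes.

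The fit was checked on simulated data. Members and lists were chosen with earlier results of these data known. Named genes were all members, up to 4 called genes of smallest p in each list (other islet transcription factors, target genes, endocrine secretory genes), the 3 genes most like each tested member, and Ins1, Ins2, Gcg, Sst, Chga and Ptprc. A gene that this rule names is not reported here. The ratio to summed secretory signal and NOD mouse 3's description were added after values were seen. The labels do not say that the replicate numbers pair the mice, and each mouse is 1 array, so the p-values measure the spread among these samples. Slides 1 and 4 held 1 strain each, and slide 4 was scanned on another day.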

Additional observations from a re-analysis of the deposited data

Results flagged for a closer look

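The log2 ratio of Foxa2 in NOD mouse 3 was 1.07, and the next highest NOD value was 0.33. The gap was large for a group of 6 by Dixon's criterion. It was the 1 group flagged of 22 examined (11 probes in 2 strains), and chance flags about 1 in 20 such groups. The value is the mean of 9 spots, 1 of the 10 having been dropped as an outlier, and all 10 were well above background. Without this mouse the Foxa2 difference between strains was -0.05 (limma, adjusted p 0.745), against 0.11 with it.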

How the results depend on the processing

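Hhex kept its direction under all 32 alternatives, with differences of 0.09 to 2.24 (limma adjusted p 0.00159 to 0.977), and its call in 12. Leaving out 1 mouse at a time gave 0.40 to 0.65 for Hhex, -0.0482 to 0.18 for Foxa2, -0.19 to 0.0527 for Isl1, -0.0602 to 0.19 for Neurod1 and -0.14 to 0.0453 for Nkx6-1. The count of factors called higher ran from 0 to 1 over these fits, the call being kept without NOD mouse 3, NOD mouse 5 or NOD.B10 mouse 1, and from 0 to 5 relative to the endocrine secretory genes, the 5 being without NOD mouse 3. That count was 0 in place of 1 with normexp offset 10, the net ratio, brightness as a covariate, rank percentiles, slide as a fixed term (also relative to the secretory genes), within slide 2, within slide 3, without the slides that hold 1 strain, scan day as a fixed term, no filter and detection on at least 1 array. The labels' replicate numbers were assumed not to pair the mice. Same-numbered arrays had correlations of -0.15 to 0.21, which cannot settle this. With the replicate block 0 factors were called higher (Hhex 0.52, limma adjusted p 0.0709). The count of factors called lower was 1 in place of 0 on the scanner's ratios, the series table, Cy5 alone and rank percentiles (Isl1), and 2 on the net ratio of genes above 0 on every array, an alternative added after seeing the data. Neurod1 changed sign to -1.06 on the scanner's ratios and in the series table, -0.30 on Cy5 alone, -0.11 with offset 10, -1.65 on the net ratio, -0.0859 with the covariate and -3.73 percentile points by rank. Foxa2 turned to -1.17 on the net ratio and -0.11 within slide 3. Nkx6-1 turned to 0.0740 with the covariate and 0.0652 within slide 2. The causes were not tested. The main 734 genes higher and 718 lower became 1980 and 0 with median centring (median of all genes 0.44), 1096 and 314 on the scanner's ratios, 874 and 266 on Cy5 alone, 375 and 63 by rank, 246 and 380 on the net ratio, 3 and 0 with the covariate, 362 and 364 with slide as a fixed term, 46 and 55 within slide 2, 1 and 1 within slide 3, 302 and 275 without single-strain slides and 700 and 1452 with no filter. Requiring detection on all 12 arrays left 162 and 180 genes called, or 137 and 267 on the net ratio, and no factor. Relative to the secretory genes, 1041 and 51 became 376 and 14 with slide and 3189 and 51 without NOD mouse 3. With the scanner's looser mark 6 factors, Pdx1 added, were detected on at least 4 arrays.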
